A study of Homo sapiens with 10 samples.

Results

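Antigen presentation and interferon genes were followed in EndoC-βH1, a clonal line of human insulin-producing cells, after knockdown of the splicing factor SRp55. The group was a list of 39 genes, matched by Ensembl identifier to the 26346 genes of the deposited files, and all 39 were found. By role they were 5 chains of class I antigen presentation, 4 genes of peptide loading and its activator, 7 transcription factors, 16 genes of RNA sensing and the interferon response, and 7 receptors and kinases. The rule that lists them uses no measured value, although earlier results of these data were known when the list was made.

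Of 10 cultures, 5 received an siRNA against SRp55, the product of SRSF6, which the labels call siSR#2. The other 5 received a control siRNA. All came from the same cell line, which was immortalised with a viral large T antigen and telomerase, and the knockdown rested on 1 siRNA. Per the design text the preparations were independent. The sample titles call both groups exposed, a word the design text uses of the siRNAs, and the labels name no interferon, cytokine or virus treatment. The control values therefore describe cells that had received control siRNA, not untreated cells.

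In most cells class I molecules carry peptides from inside the cell to its surface, where CD8+ T cells read them. A heavy chain pairs with beta-2 microglobulin in the endoplasmic reticulum and receives a peptide that the TAP transporter has brought in and tapasin has helped to load. Type I interferons bind IFNAR1 and IFNAR2, and interferon gamma binds IFNGR1 and IFNGR2. The JAK kinases on these receptors phosphorylate STAT proteins, which switch on genes that carry an interferon-stimulated response element (ISRE) or a gamma-activated site (GAS) near their start. Beta cells are a target of CD8+ T cells in type 1 diabetes, and raised class I expression in islets is a known feature of that disease.

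Many members carry the ISRE close to their start. The RefSeq promoter table (GRCh38.p14) spans 250 bases before to 50 bases after each start and matched 30 of the 39 members by symbol. The ISRE letters, GAAA and GAAA with any 2 bases between them (NN), were searched on both strands and occurred in 3.57% of all 35116 promoters in the table. The 30 matched members have 43 promoters in the table, and the letters occurred in 20 of these, which belong to 16 members. These 16 were 11 of 13 sensor and interferon-stimulated genes, 3 of 3 peptide loading genes and 2 of 4 class I chains, with 0 of 4 transcription factors and 0 of 6 receptors and kinases. The GAS letters TTCNNNGAA occurred in 7.66% of all promoters and in 7 of the 43 member promoters. These belong to 6 of the 30 members, TAP1, IRF1, IRF9, MX1, OAS1 and IFI27. Of 7 GAS matches, 3 shared bases with an ISRE match. Matches are counted once for each start, and the windows of nearby starts can share sequence. The matches of IFI27 have the same strands and spacing at its starts 1 and 2, so not all counted matches and promoters are distinct sites. Windows of 70 bases are shown for 7 members that the results below turn on, because the same letters stand upstream of genes with very different levels in these cells. Each runs 5′ to 3′ along the gene's own strand in GRCh38.p14, and capitals mark the ISRE letters on either strand, where overlapping matches run together. HERC5 is at chr4:88456992-88457061 (+), IFI6 at chr1:27672257-27672326 (-), ISG15 at chr1:1013357-1013426 (+) and IFIT1 at chr10:89392483-89392552 (+). B2M is at chr15:44711346-44711415 (+), TAP1 at chr6:32853796-32853865 (-) and TAPBP at chr6:33314079-33314148 (-).
HERC5: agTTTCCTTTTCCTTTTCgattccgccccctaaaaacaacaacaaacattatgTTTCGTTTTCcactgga
IFI6: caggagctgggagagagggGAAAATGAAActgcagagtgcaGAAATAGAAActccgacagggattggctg
ISG15: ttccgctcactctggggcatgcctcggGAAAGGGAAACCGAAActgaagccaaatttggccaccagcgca
IFIT1: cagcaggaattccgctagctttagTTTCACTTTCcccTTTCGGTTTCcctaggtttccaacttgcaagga
B2M: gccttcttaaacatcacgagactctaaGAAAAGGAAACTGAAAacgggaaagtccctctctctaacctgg
TAP1: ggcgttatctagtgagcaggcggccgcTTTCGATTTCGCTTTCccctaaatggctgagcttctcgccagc
TAPBP: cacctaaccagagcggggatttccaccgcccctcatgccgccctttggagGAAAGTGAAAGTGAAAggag

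**Figure D1:**
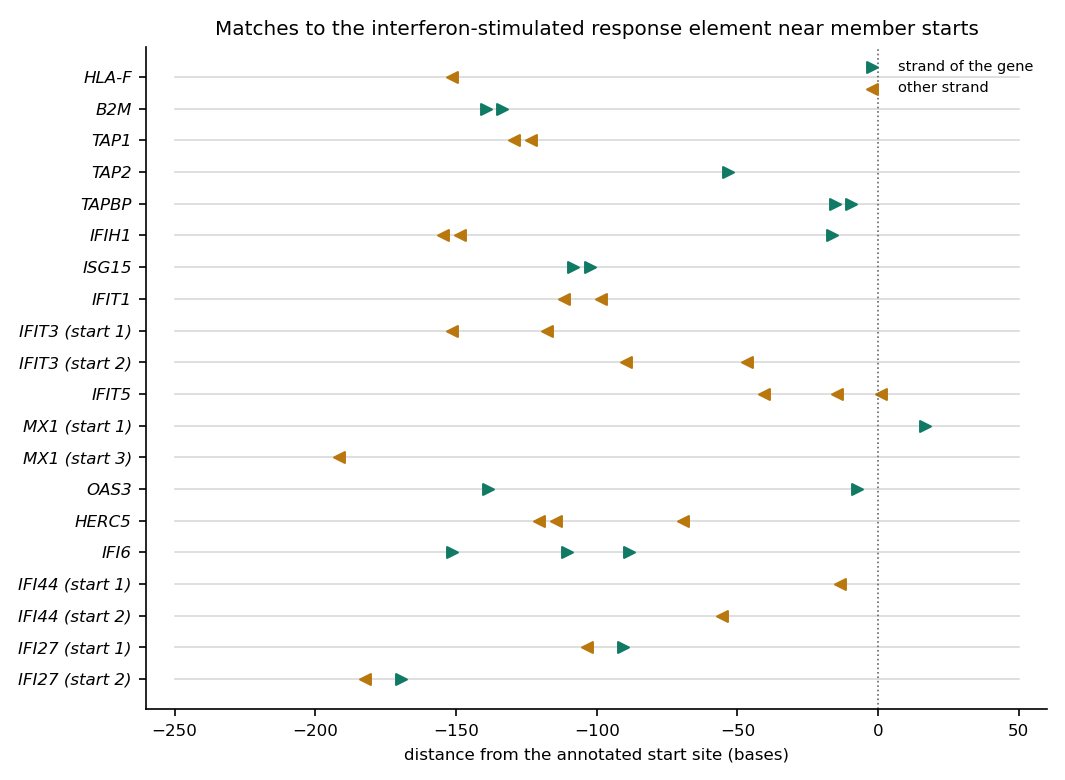
Position of each ISRE match relative to the annotated start site, in bases, for the 16 members that hold 1 or more; arrowheads point along the strand that reads GAAA, and grey lines span the searched window. Members with several annotated starts have a row for each start that holds a match. Most matches lie upstream of the start, while that of MX1 start 1 lies past it and 1 of the 3 matches of IFIT5 spans it.

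Levels are given in RPKM, reads per kilobase of transcript and per M reads (M, 10 to the power 6), summed over the transcripts of a gene. The libraries held 94.7 to 189.8 M reads assigned to transcripts in the SRp55 siRNA group and 61.9 to 159.2 M in the control siRNA group. Assigned reads made up 87.0% ± 7.24 of the total used for RPKM in SRp55 siRNA libraries and 82.1% ± 6.82 in control siRNA libraries (SD, n = 5 each), and this share enters every RPKM. SRSF6 was at 24.9 ± 3.78 RPKM in SRp55 siRNA libraries and 98.2 ± 3.24 RPKM in control siRNA libraries, so the target was lower in the libraries labelled SRp55 siRNA. The 12 beta cell markers summed to 18390 to 28520 RPKM with SRp55 siRNA and 12900 to 25130 RPKM with control siRNA, of which CHGA and INS made up 95.8% to 97.3% with SRp55 siRNA and 95.4% to 96.7% with control siRNA. Of the 12, 1 rose on RPKM. This was SLC30A8, which loads zinc into insulin granules, at 171.6 ± 24.6 RPKM with SRp55 siRNA and 77.3 ± 11.4 RPKM with control siRNA (limma adjusted p = 0.0025). With a block on replicate number, which takes equal numbers as pairs, IAPP, PDX1 and NKX6-1 also passed, as lower, and their means with SRp55 siRNA were 48.8%, 79.5% and 65.4% of those with control siRNA. That fit called 13.1% of all tested genes, against 5.02% without the block. The part of these marker changes in the results was not tested. The 8 immune markers summed to 25.5 to 49.8 RPKM with SRp55 siRNA and 34.1 to 50.5 RPKM with control siRNA, nearly all of it CD68, while CD3E was at 0 in every library and PTPRC averaged at most 0.018 RPKM. Any part of immune cells in the results was not tested.

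The members differed widely in level. In control siRNA libraries 1 member lay above 100 RPKM, 17 between 10 and 100, 10 between 1 and 10, 6 between 0.1 and 1, and 5 below 0.1. B2M, the light chain of class I, averaged 1174 ± 338 RPKM and was the 12th most abundant of all genes by this measure (SD, n = 5). HLA-E, a class I chain that is read by natural killer cells, followed at 70.0 ± 10.5 RPKM, and IFI6, an interferon-induced mitochondrial protein, at 52.6 ± 22.5 RPKM. IFNAR1, a chain of the type I interferon receptor, averaged 37.1 ± 4.05 RPKM, TYK2, a kinase of that receptor, 36.7 ± 13.9 RPKM, and STAT3, a transcription factor of cytokine signalling, 31.5 ± 3.21 RPKM. Along this order the library ranges of neighbours parted only between B2M and HLA-E, between IFNGR2 and JAK1 and between TAP1 and IFIT1, so most neighbours did not differ beyond their spread.

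The receptors and their kinases stood at 12.9 to 37.1 RPKM in control siRNA libraries, except JAK2, which averaged 2.25 ± 0.349 RPKM. Most of the classical response genes were far lower. ISG15, a ubiquitin-like protein, averaged 0.813 ± 0.316 RPKM, MX1, an antiviral GTPase, 0.591 ± 0.299 RPKM, and IFIT2, which binds viral RNA, 0.0286 ± 0.0109 RPKM. IFI44 was listed at 0 in all 10 libraries and OAS2, which makes the second messenger of RNase L, in 3 of them. HERC5, a ligase that attaches ISG15 to proteins, and the RNA sensing enzymes OAS3 and OAS1 were higher, at 15.4 ± 1.39, 12.1 ± 0.66 and 10.1 ± 2.17 RPKM. IFI6, HERC5, ISG15 and IFIT1 all hold the ISRE letters printed above, at mean levels that ranged from 0.813 to 52.6 RPKM.

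**Figure D2:**
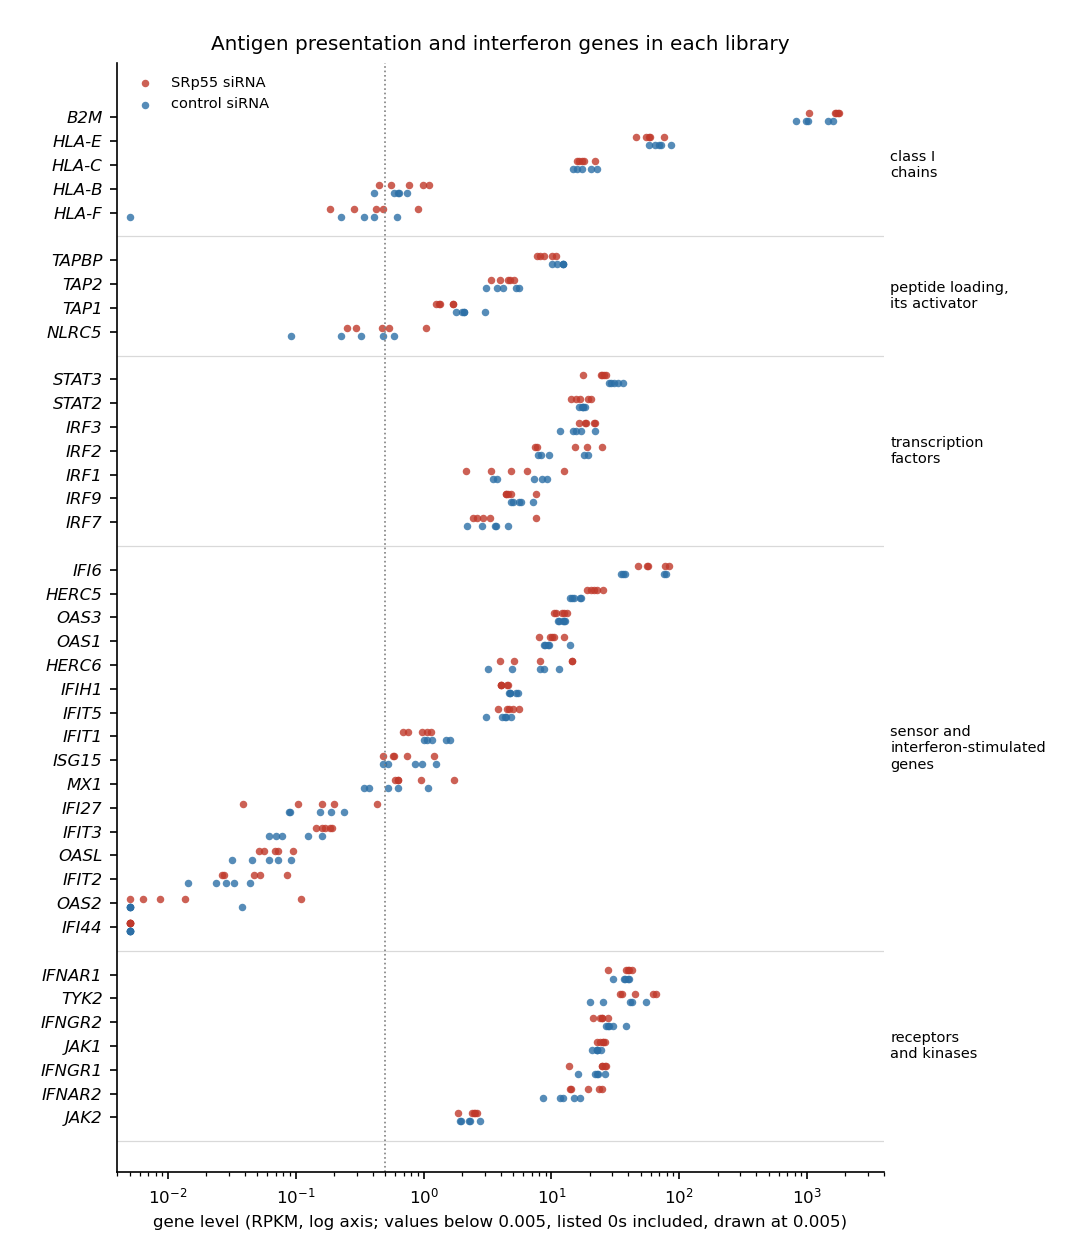
Level of each of the 39 members in every library, in RPKM on a log axis, with SRp55 siRNA in red above control siRNA in blue; values below 0.005, listed 0s included, are drawn at 0.005, and the dotted line marks 0.5 RPKM. The groups overlap for nearly all members, and 8 members average below 0.5 RPKM.

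Of the 39 members, 31 averaged at least 0.5 RPKM over all libraries and were tested. Knockdown of SRp55 changed 1 of them on RPKM (HERC5, higher), which is 3.23% of those tested, against 5.02% of all 13630 tested genes, 3.76% as higher and 1.25% as lower (limma, Benjamini-Hochberg adjusted p under 0.05 over all tested genes). Relative to the median tested gene, 12 members had a higher and 19 a lower fold change, with a median log2 fold change of -0.08, where all tested genes have 0 by construction. An unadjusted p under 0.05 was found for 8 of the 31 members, against 21.9% of all tested genes. By adjusted p the share of called members, 3.23% against 5.02%, was not above the background on this scale. The share with an unadjusted p under 0.05 was somewhat above that of all tested genes, a difference that was not tested. Fold changes are printed relative to the median tested gene, whose RPKM was 0.11 higher on the log2 scale in SRp55 siRNA libraries. The adjusted p-values, here and for every gene below, are those of the unshifted change and do not test the printed fold change. On RPKM the unshifted log2 fold change was 0.48 for HERC5, -0.45 for TAP1, -0.29 for IFNGR2 and 0.0073 for TAP2.

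The members called depended on the scale and on whether equal replicate numbers were taken as pairs, which the libraries' own correlations allow. With the replicate block 5 of 31 members passed, HERC5 as higher and TAP1, TAPBP, STAT3 and HLA-E as lower, against 13.1% of all tested genes, 9.39% as higher and 3.7% as lower. On summed reads, which give each read the same weight whatever the length of its transcript, 6 of 31 passed, against 17.1% of all tested genes, 7.28% as higher and 9.82% as lower. These were HERC5 as higher and TAP1, TAPBP, STAT3, HLA-E and IFNGR2 as lower. After median-of-ratios scaling 3 of 31 passed, TAP1, STAT3 and IFNGR2, all as lower, against 6.85% of all tested genes, 3.18% as higher and 3.67% as lower. The other fits, chosen after seeing the data, joined the block to another scale. With the block and median-of-ratios scaling 6 of 31 passed, the same 6 names as on summed reads, against 11.5% of all tested genes, 5.66% as higher and 5.83% as lower. With the block and summed reads 14 of 31 passed, against 36.3% of all tested genes, 15.8% as higher and 20.5% as lower. Beside those 6, they were B2M, IRF1, MX1 and IFNAR2 as higher and IRF9, IFIH1, IFIT1 and OAS3 as lower.

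Over coding transcripts alone 3 of 30 passed, HERC5 and IRF3 as higher and IFNGR2 as lower, against 4.87% of the genes tested there, 3.26% as higher and 1.61% as lower. Coding here means labelled protein_coding in GENCODE 44, so transcripts absent from that release were left out. In control siRNA libraries these held 100% of the ISG15 sum, 85.8% of the IFIH1 sum and 51.0% of the IFNAR1 sum. ISG15 was not tested there, and B2M kept 0.072% of its sum. The 2 groups of libraries did not overlap in RPKM for HERC5, which was higher, and for TAP1, STAT3 and IFIH1, which were lower. These 4 are 12.9% of the 31 members, against 7.92% of all tested genes, 5.61% as higher and 2.32% as lower. In RPM, reads per M assigned reads with no division by length, the groups did not overlap for HERC5 and IFNAR2, which were higher, and for HLA-E, TAP1, STAT3 and IFNGR2, which were lower. These 6 are 19.4% of the members, against 13.8% of all tested genes, 5.6% as higher and 8.21% as lower.

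HERC5 (ENSG00000138646.4, chromosome 4, 89378268 to 89427314, GRCh37) was the member that rose. It had 21.7, 18.9, 22.6, 25.4 and 20.5 RPKM in SRp55 siRNA replicates 1 to 5, against 14.0, 14.4, 17.1, 16.8 and 14.9 RPKM in control siRNA replicates 1 to 5. Every SRp55 siRNA library lay above every control siRNA library. The means were 21.8 ± 2.45 RPKM with SRp55 siRNA and 15.4 ± 1.39 RPKM with control siRNA (SD, n = 5 each), a log2 fold change of 0.37 (SE 0.11, limma adjusted p = 0.031). The adjusted p was 0.005 on summed reads, 0.014 with the block on replicate number and 0.070 after median-of-ratios scaling. With 1 library left out it ranged from 0.029 to 0.085. It stayed under 0.05 in 3 of 10 cases, without control siRNA replicate 4, SRp55 siRNA replicate 2 or SRp55 siRNA replicate 5. The full-length coding transcript ENST00000264350.3 was at 17.2 ± 1.98 RPKM, 79.5% of the HERC5 sum, in SRp55 siRNA libraries and at 11.1 ± 1.19 RPKM, 71.6% of the sum, in control siRNA libraries.

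The 3 tested peptide loading genes, TAP1, TAPBP and TAP2, had fold changes below the median gene, that of TAP2 by less than its SE. TAP1 (ENSG00000168394.9, chromosome 6, 32812986 to 32821755, GRCh37) codes for a chain of the transporter that moves peptides into the endoplasmic reticulum. It had 1.69, 1.26, 1.33, 1.69 and 1.35 RPKM in SRp55 siRNA replicates 1 to 5, against 3.00, 1.79, 2.01, 2.09 and 2.07 RPKM in control siRNA replicates 1 to 5. Every SRp55 siRNA library was below every control siRNA library, and control siRNA replicate 1 stood above the rest. The means were 1.46 ± 0.207 RPKM with SRp55 siRNA and 2.19 ± 0.466 RPKM with control siRNA (SD, n = 5 each), a log2 fold change of -0.55 (SE 0.13). The limma adjusted p was 0.081 without the replicate block, 0.026 with it, 0.008 on summed reads and 0.025 after median-of-ratios scaling. TAP1 overlaps PSMB9 and PSMB8-AS1 on the other strand. Whether the counting used strand is not given, so reads of the overlap cannot be told apart. In bulk RNA, less RNA per cell and fewer cells that make it cannot be told apart, which holds for all results here.

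TAPBP (ENSG00000231925.7, chromosome 6, 33267471 to 33282164, GRCh37) codes for tapasin, which bridges TAP and the class I chains. It had 10.1, 8.19, 7.68, 8.82 and 10.9 RPKM in SRp55 siRNA replicates 1 to 5, against 12.3, 10.1, 11.1, 12.4 and 12.2 RPKM in control siRNA replicates 1 to 5. The SRp55 siRNA library was the lower in 5 of 5 pairs, but SRp55 siRNA replicate 5 overlapped control siRNA replicate 2. The means were 9.13 ± 1.32 RPKM with SRp55 siRNA and 11.6 ± 0.993 RPKM with control siRNA (SD, n = 5 each), a log2 fold change of -0.45 (SE 0.12). The limma adjusted p was 0.122 without the replicate block, 0.039 with it and 0.025 on summed reads. TAP2, the other chain of the transporter, averaged 4.35 ± 0.682 RPKM with SRp55 siRNA and 4.37 ± 1.03 RPKM with control siRNA, and its log2 fold change of -0.10 (SE 0.16) did not pass in any of these fits (adjusted p = 0.985 on RPKM). NLRC5, an activator of class I genes, lay below the level needed for a test, at 0.521 ± 0.319 RPKM with SRp55 siRNA and 0.342 ± 0.197 RPKM with control siRNA. In RPM, NLRC5 was at 1.10 to 1.49 with SRp55 siRNA and 0.807 to 1.07 with control siRNA, so on that scale its groups did not overlap.

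**Figure D3:**
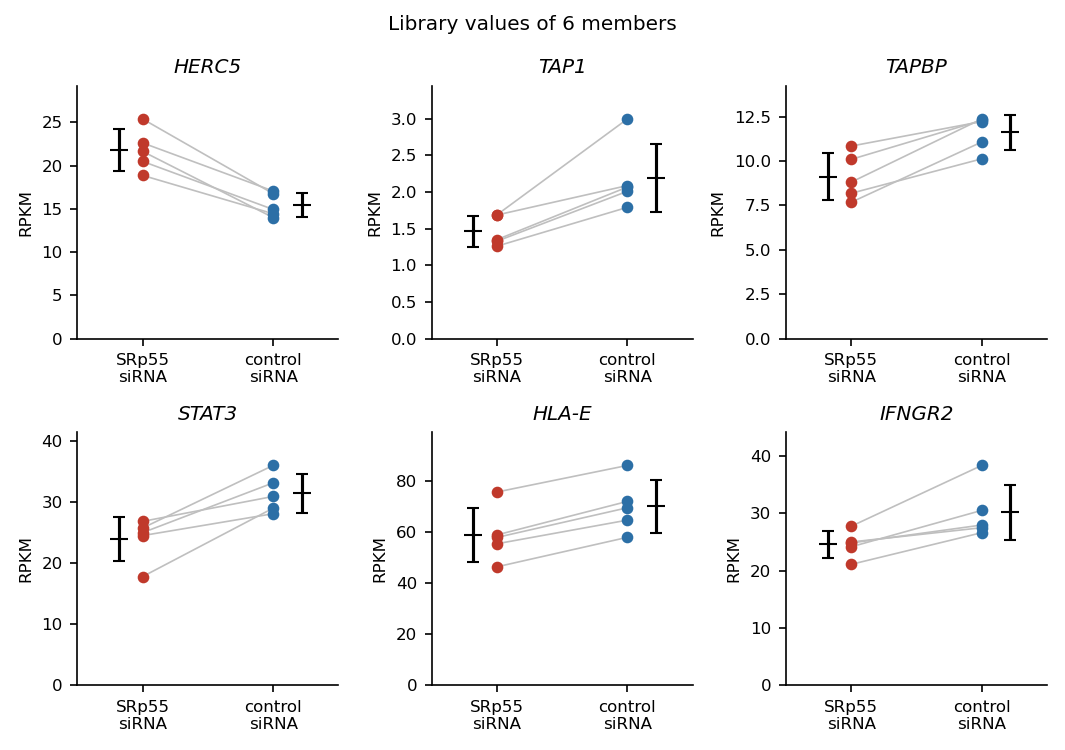
RPKM of 6 members in each library, with SRp55 siRNA at the left and control siRNA at the right; grey lines join equal replicate numbers, and black bars show the mean ± SD (n = 5). HERC5 lies higher in every SRp55 siRNA library, and TAP1, TAPBP, STAT3, HLA-E and IFNGR2 are lower in the SRp55 siRNA library of all 5 pairs.

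Class I chains differed among themselves. HLA-E (ENSG00000204592.5, chromosome 6, 30457244 to 30461982, GRCh37) had 75.6, 57.8, 55.4, 58.8 and 46.3 RPKM in SRp55 siRNA replicates 1 to 5, against 86.1, 69.5, 64.6, 71.97 and 57.9 RPKM in control siRNA replicates 1 to 5. It was lower with SRp55 siRNA in 5 of 5 pairs, while the groups overlapped because the pairs stood at different levels. Its log2 fold change was -0.36 (SE 0.15), with a limma adjusted p of 0.347 without the replicate block, 0.042 with it and 0.017 on summed reads. B2M (ENSG00000166710.13, chromosome 15, 45003675 to 45011075, GRCh37) had 1686, 1642, 1779, 1762 and 1035 RPKM in SRp55 siRNA replicates 1 to 5, against 1464, 1014, 979, 1599 and 814 RPKM in control siRNA replicates 1 to 5. It was higher with SRp55 siRNA in 5 of 5 pairs, and the groups overlapped. This was a log2 fold change of 0.34 (SE 0.22), and the limma adjusted p was 0.270 without and 0.078 with the replicate block, so B2M did not pass in either.

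HLA-C, a classical heavy chain, averaged 17.8 ± 2.41 RPKM with SRp55 siRNA and 18.2 ± 3.27 RPKM with control siRNA. HLA-B, another, averaged 0.774 ± 0.28 RPKM with SRp55 siRNA and 0.602 ± 0.124 RPKM with control siRNA. HLA-F, a non-classical chain below the level needed for a test, averaged 0.457 ± 0.277 RPKM with SRp55 siRNA and 0.32 ± 0.229 RPKM with control siRNA. These genes are near-identical over long stretches and highly variable between people, so their reads may be split between them and each single value is uncertain. Of the B2M sum, transcripts that GENCODE 44 labels nonsense_mediated_decay held 56.9% ± 4.99 with SRp55 siRNA and 57.0% ± 5.92 with control siRNA. Those labelled protein_coding held only 0.062% and 0.072%, and those absent from GENCODE 44 26.9% and 28.6%. The B2M transcripts with at least 5% usage were 499 to 732 bases long, so its RPKM depends on how reads were assigned to short transcripts. In RPM, B2M averaged 867 ± 175 and HLA-E 219 ± 22.7 with control siRNA. Whether the assignment to transcripts is right was not tested.

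Among transcription factors, STAT3 (ENSG00000168610.10, chromosome 17, 40465342 to 40540586, GRCh37), which carries signals of interleukin-6 family receptors, stood apart. It had 25.8, 24.5, 25.0, 26.8 and 17.8 RPKM in SRp55 siRNA replicates 1 to 5, against 36.0, 28.1, 33.2, 30.9 and 29.0 RPKM in control siRNA replicates 1 to 5. Every SRp55 siRNA library was below every control siRNA library, and SRp55 siRNA replicate 5 was the lowest. This was a log2 fold change of -0.50 (SE 0.13), with a limma adjusted p of 0.108 without the replicate block, 0.045 with it, 0.001 on summed reads and 0.016 after median-of-ratios scaling. STAT2 and IRF9, which form the complex that binds the ISRE, had log2 fold changes of -0.13 (SE 0.11) and -0.25 (SE 0.16) and did not pass on RPKM, with the block or on summed reads. IRF3, which acts downstream of RNA and DNA sensors, had a log2 fold change of 0.17 (SE 0.16, adjusted p = 0.343). Over its coding transcripts alone the value was 0.50 (adjusted p = 0.039).

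IRF1, IRF2 and IRF7 varied between replicates more by RPKM than by reads. IRF1, an activator of class I and interferon genes, had 6.47, 12.6, 2.15, 3.35 and 4.87 RPKM in SRp55 siRNA replicates 1 to 5, against 3.75, 8.42, 9.16, 3.49 and 7.29 RPKM in control siRNA replicates 1 to 5. The groups overlapped widely, with a log2 fold change of -0.34 (SE 0.41, adjusted p = 0.782 by limma). In RPM, IRF1 was at 10.9 ± 2.52 with SRp55 siRNA and 8.11 ± 0.559 with control siRNA (SD, n = 5 each), and the sign turned, to a log2 fold change of 0.41 (SE 0.15, adjusted p = 0.086). The transcript ENST00000463784.1, of 520 bases and without a defined coding sequence, held 13.2% of the IRF1 sum with SRp55 siRNA and 59.9% with control siRNA. It held from 0.812% to 29.9% in single SRp55 siRNA libraries and from 6.39% to 93.0% in single control siRNA libraries. A short transcript turns few reads into a high RPKM.

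IRF2, which competes with IRF1 for its sites, showed the same kind of spread, with a coefficient of variation over control siRNA libraries of 44.7% by RPKM and 7.90% by RPM. Its transcript ENST00000505067.1, of 586 bases, was at 0.49, 14.0, 17.7, 10.2 and 0.0794 RPKM in SRp55 siRNA replicates 1 to 5, against 13.7, 1.75, 13.2, 0.251 and 0.0888 RPKM in control siRNA replicates 1 to 5. High and very low values occurred in both groups, and control siRNA replicate 2 lay between them. Over all 31 tested members the median coefficient of variation in control siRNA libraries was 20.5% by RPKM and 12.0% by RPM, close to 18.0% and 11.3% over all tested genes.

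**Figure D4:**
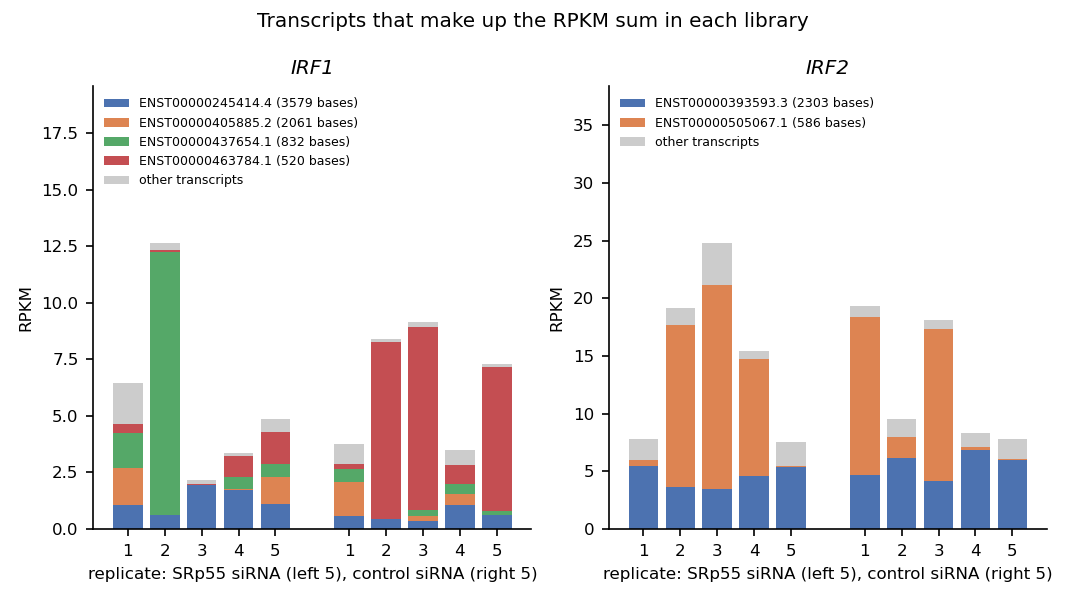
RPKM of IRF1 and IRF2 in each library, split by transcript, with SRp55 siRNA libraries at the left and control siRNA libraries at the right of each panel; grey is the sum of the transcripts under the usage minimum. Short transcripts, of 832 and 520 bases in IRF1 and 586 bases in IRF2, make up most of the tall bars in both groups.

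Usage of transcripts, the percent that each contributed to the RPKM sum of its gene, was testable in 23 members, and 0 were called by diffSplice with an adjusted p under 0.05 and a shift of at least 10 percentage points. Over all genes 40 of 9915 were called, or 0.403%. IRF1 had the smallest p of the members, 0.012 before and 0.355 after adjustment by limma's diffSplice over all genes, with a shift of 46.7 points in ENST00000463784.1, and it was the single member with an unadjusted p under 0.05. IFNAR2 followed, with an unadjusted p of 0.146 and a largest shift of 15.2 points. On simulated data the usage test missed some changed genes and called some unchanged ones, so neither a call nor its absence is firm.

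Beyond HERC5, the genes of sensing and response gave no call on RPKM. Of the 10 tested, HERC5 included, 5 lay above and 5 below the median gene. IFIH1, a sensor of long double-stranded RNA, had 4.03, 4.02, 4.61, 4.46 and 4.01 RPKM in SRp55 siRNA replicates 1 to 5, against 4.72, 5.27, 5.49, 4.76 and 4.62 RPKM in control siRNA replicates 1 to 5. The groups did not overlap by a narrow margin, and the log2 fold change of -0.32 (SE 0.09, limma adjusted p = 0.224) did not pass. IFIT1, which binds viral RNA caps, averaged 0.926 ± 0.193 RPKM with SRp55 siRNA and 1.27 ± 0.275 RPKM with control siRNA (log2 fold change -0.42, SE 0.14, adjusted p = 0.224). IFIT1, IFIT2 and IFIT3 lie within the span of LIPA on the other strand, a gene at 34.2 RPKM, so their low values are uncertain. MX1 averaged 0.909 ± 0.485 RPKM with SRp55 siRNA and 0.591 ± 0.299 RPKM with control siRNA (0.24, SE 0.23), and HERC6, a relative of HERC5, 9.28 ± 5.07 RPKM with SRp55 siRNA and 7.31 ± 3.28 RPKM with control siRNA (0.16, SE 0.41).

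The other response genes with a test lay between ISG15, at a log2 fold change of -0.21 (SE 0.19), and IFI6, at 0.24 (SE 0.27), and none passed on RPKM. OAS1, OAS3 and IFIT5, an RNA-binding relative of IFIT1, stood between -0.14 and 0.06. Of the 6 response genes below the test level, IFI44 was at 0 throughout. IFIT2 averaged 0.0476 ± 0.0238 RPKM with SRp55 siRNA and 0.0286 ± 0.0109 RPKM with control siRNA, with overlap. OAS2 was at 0 to 0.11 RPKM with SRp55 siRNA and 0 to 0.038 RPKM with control siRNA. IFIT3, a partner of IFIT1, was at 0.193, 0.144, 0.185, 0.161 and 0.17 RPKM in SRp55 siRNA replicates 1 to 5, against 0.0619, 0.0706, 0.0785, 0.125 and 0.161 RPKM in control siRNA replicates 1 to 5. It was higher in 5 of 5 pairs with overlap between the groups, and in a fit without the filter the limma adjusted p was 0.096. IFI27, an interferon-induced membrane protein, averaged 0.187 ± 0.149 RPKM with SRp55 siRNA and 0.152 ± 0.0653 RPKM with control siRNA, and OASL, an OAS-like protein, 0.0691 ± 0.0172 RPKM with SRp55 siRNA and 0.0605 ± 0.0229 RPKM with control siRNA.

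**Figure D5:**
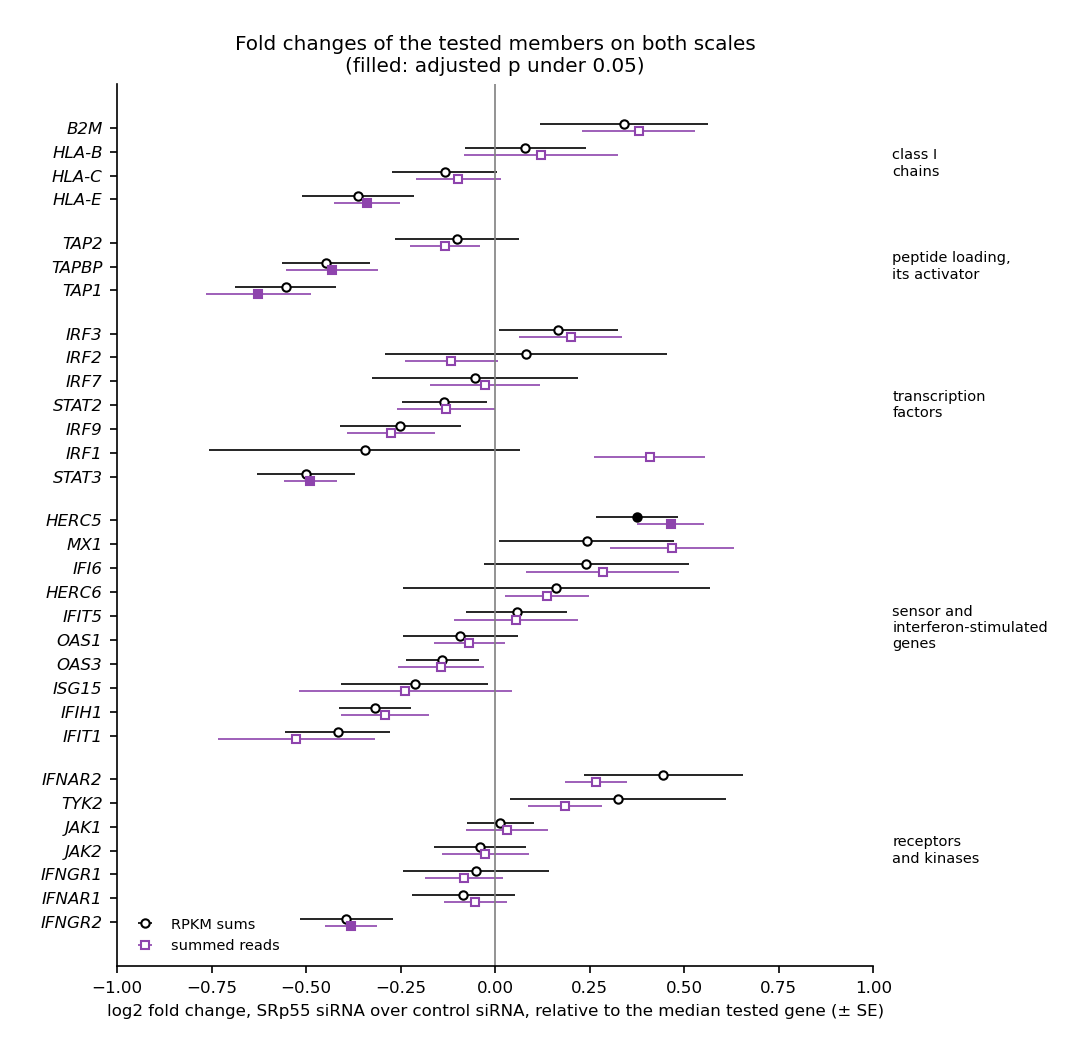
Log2 fold change of the 31 tested members, SRp55 siRNA over control siRNA, relative to the median tested gene, with bars of 1 SE; circles are RPKM sums, squares are summed reads, and filled symbols have an adjusted p under 0.05. HERC5 is filled on both scales, TAP1, TAPBP, STAT3, HLA-E and IFNGR2 on summed reads, and IRF1 changes sign between the scales.

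Receptors and kinases gave no call on RPKM with limma, and 2 of 7 had an unadjusted p under 0.05, against 21.9% of all tested genes. IFNGR2 (ENSG00000159128.10, chromosome 21, 34775202 to 34851655, GRCh37), the signalling chain of the interferon gamma receptor, had 24.2, 25.0, 24.8, 27.8 and 21.1 RPKM in SRp55 siRNA replicates 1 to 5, against 30.5, 27.5, 28.0, 38.4 and 26.6 RPKM in control siRNA replicates 1 to 5. SRp55 siRNA was lower in 5 of 5 pairs, and SRp55 siRNA replicate 4 overlapped the lower control siRNA libraries. This was a log2 fold change of -0.39 (SE 0.12), with a limma adjusted p of 0.206 without the replicate block, 0.054 with it, 0.002 on summed reads and 0.023 after median-of-ratios scaling. IFNGR2 overlaps TMEM50B, at 16.1 RPKM, on the other strand. IFNGR1, its ligand-binding partner, averaged 23.3 ± 5.38 RPKM with SRp55 siRNA and 22.0 ± 3.64 RPKM with control siRNA (-0.05, SE 0.19).

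IFNAR2, a chain of the type I interferon receptor, had 25.0, 23.7, 19.2, 14.2 and 14.0 RPKM in SRp55 siRNA replicates 1 to 5, against 16.7, 8.67, 15.1, 12.3 and 11.6 RPKM in control siRNA replicates 1 to 5. It was higher with SRp55 siRNA in 5 of 5 pairs, with overlap between the groups. This was a log2 fold change of 0.45 (SE 0.21), and the limma adjusted p was 0.160 on RPKM and 0.051 on summed reads, so it did not pass in either. IFNAR1 averaged 38.0 ± 5.89 RPKM with SRp55 siRNA and 37.1 ± 4.05 RPKM with control siRNA. The kinases JAK1, JAK2 and TYK2 had log2 fold changes of 0.01 (SE 0.09), -0.04 (SE 0.12) and 0.32 (SE 0.29).

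Over the 5 lists of other pathway genes, 2 of 76 tested genes passed on RPKM, or 2.63% against 5.02% of all tested genes. With the replicate block 10 passed, or 13.2% against 13.1%, and on summed reads 16, or 21.1% against 17.1%. An unadjusted p under 0.05 on RPKM was found for 19.7%, against 21.9% of all tested genes. The shares were below or near those of all genes on RPKM and with the block. They were above on summed reads and after median-of-ratios scaling, whose counts are given in the closing section, and these differences were not tested. Of 16 tested among 19 other class I pathway genes, 0 passed on RPKM with limma and 0 with the replicate block, and LNPEP, an aminopeptidase, passed on summed reads as lower. An unadjusted p under 0.05 was found for 2 of the 16. The median log2 fold change of these 16 was 0.08. The chaperones CALR and PDIA3 belong with tapasin to the loading complex. CALR averaged 676 ± 35.6 RPKM with SRp55 siRNA and 549 ± 46.3 RPKM with control siRNA, and PDIA3 562 ± 19.1 RPKM with SRp55 siRNA and 477 ± 40.7 RPKM with control siRNA. The groups did not overlap for either gene, but neither passed (adjusted p = 0.139 and 0.216). Of 13 class II genes, which present peptides to CD4+ T cells, 2 reached the test level, CIITA and CD74, and 0 passed with limma on RPKM or had an unadjusted p under 0.05. On summed reads CIITA, the activator of class II genes, passed as lower (adjusted p = 0.009). HLA-DRA, HLA-DRB1, HLA-DPB1 and HLA-DQA1 were listed at 0 in every library. CD74, the invariant chain, averaged 29.8 ± 11.7 RPKM with SRp55 siRNA and 24.2 ± 3.52 RPKM with control siRNA.

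Of 30 tested among 50 other interferon-stimulated genes, 1 rose, 0 fell and 29 did not pass on RPKM. The 1 that rose was CXCL11, a chemokine that draws T cells through CXCR3. It had 1.02, 0.93, 0.855, 1.01 and 0.483 RPKM in SRp55 siRNA replicates 1 to 5, against 0.466, 0.345, 0.386, 0.477 and 0.253 RPKM in control siRNA replicates 1 to 5. Every SRp55 siRNA library was above every control siRNA library, the closest by a few thousandths of an RPKM. This was a log2 fold change of 0.50 (SE 0.14, adjusted p = 0.036 by limma), and 1.37 on summed reads (adjusted p = 0.002). With 1 library left out the adjusted p on RPKM ranged from 0.011 to 0.086 and stayed under 0.05 in 2 of 10 cases, without control siRNA replicate 4 or SRp55 siRNA replicate 5. The 0.5 RPKM added before taking logs lowers the first of these values for a gene at this level. CXCL11 averaged 0.386 RPKM with control siRNA, under the 0.5 RPKM needed for a test, and 0.86 RPKM with SRp55 siRNA. Its place among the tested genes therefore depended on the group in which it was higher. With the replicate block, which called 13.1% of all tested genes, RSAD2, the antiviral protein viperin, also passed as higher and BATF2, a transcription factor, as lower. On summed reads 5 of the 30 passed, where 17.1% of all tested genes did, so this count was near the background. These were CXCL11, RSAD2 and TRIM5, a factor that restricts retroviruses, as higher and BATF2 and LGALS3BP, a secreted glycoprotein, as lower.

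Of 12 tested among 17 nucleic acid sensing genes, 0 passed on RPKM with limma, and 3 had an unadjusted p under 0.05, against 21.9% of all tested genes. With the replicate block, which called 13.1% of all tested genes, RIGI, the sensor of short viral RNA, and MAVS, the adaptor of RIGI and IFIH1, passed as lower and DDX41, a helicase, as higher. The same 3 genes passed in those directions on summed reads, which called 17.1% of all tested genes. RIGI averaged 1.70 ± 0.252 RPKM with SRp55 siRNA and 2.46 ± 0.27 RPKM with control siRNA, with no overlap (log2 fold change -0.54, SE 0.12, limma adjusted p = 0.059 without and 0.021 with the block). MAVS averaged 16.2 ± 1.17 RPKM with SRp55 siRNA and 19.4 ± 1.41 RPKM with control siRNA, also with no overlap (-0.36, SE 0.09, adjusted p = 0.155 without and 0.042 with the block). Both lay on the same side as IFIH1, which did not pass with the block (adjusted p = 0.091). STING1, the adaptor of DNA sensing, was listed at 0 in every library.

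Of 16 tested among 25 interferons and signalling regulators, 0 rose and 1 fell on RPKM. The 1 that fell was IL6ST, the gp130 chain that signals through JAK kinases to STAT3. It had 1.59, 1.87, 2.00, 2.33 and 1.25 RPKM in SRp55 siRNA replicates 1 to 5, against 2.45, 3.03, 3.40, 3.23 and 3.70 RPKM in control siRNA replicates 1 to 5. All SRp55 siRNA libraries were below all control siRNA libraries, with a log2 fold change of -0.78 (SE 0.15, adjusted p = 0.0295 by limma). With 1 library left out this p ranged from 0.032 to 0.076 and stayed under 0.05 in 4 of 10 cases, without control siRNA replicates 1 or 4 or SRp55 siRNA replicates 4 or 5. STAT5B, a transcription factor of cytokine signalling, and JAK3, a kinase of cytokine receptors, passed as lower with the replicate block, and SOCS1, an inhibitor of JAK kinases, as higher. The block called 13.1% of all tested genes, and summed reads 17.1%. On summed reads 1 passed as higher, SOCS1, and 5 as lower, IL6ST, STAT5B, JAK3, IL10RB, a receptor chain of the interleukin-10 family and of lambda interferons, and PTPN11, a phosphatase of cytokine signalling. SOCS1 averaged 1.07 ± 0.244 RPKM with SRp55 siRNA and 0.625 ± 0.13 RPKM with control siRNA, with no overlap (log2 fold change 0.36, SE 0.13, adjusted p = 0.062 without and 0.017 with the block). IFNA1, IFNA2, IFNG and IFNL1 were listed at 0 in every library, and IFNB1 averaged 0.0114 ± 0.0106 RPKM with SRp55 siRNA and 0.00871 ± 0.0133 RPKM with control siRNA.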

How the data were processed

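Polyadenylated RNA of EndoC-βH1 cells was sequenced on an Illumina HiSeq instrument, per the labels, and aligned with TopHat to GRCh37 (hg19), per the submitters' processing notes. Not given in the sources used here are the counting program, the annotation release and whether strand was used. The deposited files list 155130 transcripts with length, estimated reads and RPKM as text in 1 column, the other values of these files being text. Gene values were sums over transcripts. Symbols and biotypes came from GENCODE 44, which named 95.0% of genes and gave a biotype to 92.4% of transcripts. Reads per library and the share assigned stand in the results, and the 13 mitochondrial genes were listed with 0 reads.

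The test, limma 3.58.1 in R 4.3.3, ran on log2(RPKM + 0.5) for genes averaging at least 0.5 RPKM, with trend and robust options, group only, adjusted over all tested genes; this scale understates changes of low genes. As the reads are not in a column of their own, summed reads (log2 RPM) served as an alternative and edgeR was not used. Usage was tested with diffSplice on transcripts of at least 0.5 RPKM and 5% usage. The tests were tried on simulated data. Equal replicate numbers correlated at 0.13 to 0.41 in their deviations from the group means, different numbers at -0.17 to 0.12, so the numbers were treated as pairs in a fit with a replicate block. Other alternatives were pseudocounts of 0.1 and 1, no filter, at least 1 RPKM, median-of-ratios scaling, coding transcripts, no trend or robust option, and leaving out each library.

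The members, gene lists and tests were chosen with earlier results of these data known. Members were named with full values where a fit on RPKM, summed reads or the block called them, where they were the highest 6 or below the filter, or where they had the smallest p of their role; of the other lists, genes called on RPKM. The named genes called only by the block or reads and CALR, PDIA3, CD74, CIITA, STING1, IFNB1, IRF1, IRF2 and IFNAR2 were added after their values were seen. CCL5 and IKBKE matched no symbol and are not analysed here.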

Additional observations from a re-analysis of the deposited data

Results flagged for a closer look

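In groups of 5 libraries, a highest or lowest value was set apart when its gap to the next exceeded 0.71 of the group's range. This held for 9 of 62 groups of tested members. Chance gives about 1 in 20 for a single group. The 62 groups share the same 10 libraries and are not independent, so their count was not tested against that rate. Of the 9, 5 were low values in SRp55 siRNA replicate 5. They were B2M at 1035 RPKM against 1642 to 1779 RPKM in the other SRp55 siRNA libraries, STAT3 at 17.8 RPKM against 24.5 to 26.8, IFNAR1 at 27.8 RPKM against 38.7 to 42.7, IFNGR1 at 13.8 RPKM against 24.7 to 26.8, and JAK2 at 1.87 RPKM against 2.40 to 2.61. That library had 76.8% of its reads assigned to transcripts. Control siRNA replicates 5 and 2 had 74.2% and 77.9%, and no value in them was set apart.

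The other 4 were high values. TAP1 was at 3.00 RPKM in control siRNA replicate 1 against 1.79 to 2.09 RPKM in the other control siRNA libraries, and OAS1 at 13.9 RPKM in control siRNA replicate 4 against 8.74 to 9.59. IRF7 was at 7.55 RPKM in SRp55 siRNA replicate 1 against 2.45 to 3.34 RPKM in the other SRp55 siRNA libraries, and IRF9 at 7.56 RPKM in SRp55 siRNA replicate 3 against 4.40 to 4.80. In RPM, none of these 9 values passed the same limit. STAT3 in SRp55 siRNA replicate 5, for example, was at 74.8 RPM, within the 72.2 to 83.1 RPM of the other SRp55 siRNA libraries. The part of the assigned share in these values was not tested.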

How the results depend on the processing

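On RPKM 1 member and 684 genes passed. The replicate block gave 5 members and 1784 genes, summed reads 6 and 2331, median-of-ratios scaling 3 and 933, and coding transcripts 3 and 589. Chosen after seeing the data, the block with median-of-ratios scaling gave 6 members and 1566 genes, and the block with summed reads 14 and 4946. Leaving out 1 library gave 0 to 1 members and 259 to 1083 genes, the extreme gene counts without control siRNA replicates 2 and 4. Of 76 tested other pathway genes 2 passed on RPKM, against 5.02% of all tested genes. On summed reads 16 of 76 passed, against 17.1%, and after median-of-ratios scaling 8 of 76, against 6.85%. With the block 10 of 76 passed, against 13.1%. With the block and median-of-ratios scaling 10 of 76 passed, against 11.5%, and with the block and summed reads 24 of 76, against 36.3%. At a minimum of 1 RPKM 1 passed, where 645 of all 12695 tested genes did. On coding transcripts 4 passed, against 4.87% of the genes tested there, and without 1 library 0 to 3 passed. For usage 40 genes passed, 20 at a usage minimum of 10% and 24 to 59 without 1 library, and 0 members. Over member fold changes and these counts, 31 values changed sign, all of members without a call on RPKM. On coding transcripts the changed log2 fold changes were -0.053 for HLA-B, 1.27 for IRF1, -0.041 for IFIT5, -0.25 for HERC6, 0.010 for IFNAR1, 0.031 for IFNGR1 and 0.012 for JAK2. On summed reads, with and without the block, they were 0.41 for IRF1 and -0.12 for IRF2. Without the filter they were 0.022 for IRF7, 0.024 for IFNGR1 and 0.035 for JAK2. With 1 library left out the ranges were -0.13 to 0.31 for IRF2, -0.27 to 0.065 for IRF7, -0.059 to 0.16 for IFIT5, -0.044 to 0.36 for HERC6, -0.12 to 0.080 for IFNGR1, -0.034 to 0.061 for JAK1 and -0.13 to 0.039 for JAK2. The cause of these differences was not tested. The 8 members below 0.5 RPKM were left out of the test by the filter, and the part of depth was not tested.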
